A study of Homo sapiens with 6 samples.

Results

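Replicating DNA once per cell cycle needs a set of genes that is read mainly as cells approach and pass through S phase, and 39 of them were examined in U2OS cells, a human osteosarcoma line, with and without a knockdown of TUSC4. Members were taken by symbol, with no threshold on a measured value, for their roles in origin licensing, the replication fork and deoxynucleotide supply, with the transcription factor genes E2F1 and E2F2 and the hemimethylated-DNA reader UHRF1. They account for 39 of 31334 gene symbols and 56 of 47231 probes on the array. Of the 39 genes, 38 had a probe above the estimated background on at least 3 of the 6 arrays, among 15300 genes tested.

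The arrays compared 3 samples of U2OS cells carrying a control shRNA, which the labels also call parental, with 3 samples of U2OS cells carrying a stable shRNA knockdown of TUSC4. TUSC4, now named NPRL2, encodes part of GATOR1, which holds back mTORC1, a kinase that drives growth, during amino acid shortage. No other agent, allele or treatment is named for either group. The shRNA sequences and whether the knockdown line is a single clone or a pool are not given in the sources used here. Nothing says that the 3 samples of a group were separate cultures, so the p-values speak for the spread among these samples alone, and that spread may be technical. All 6 arrays lay on 1 chip with the control samples at neighbouring positions and the knockdown samples at the next ones, so position and group cannot be told apart.

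Values are log2 intensities after normexp background correction, with an offset of 50, and quantile normalization, and a fold change is TUSC4 shRNA over control shRNA on that scale. Each gene was read by its brightest probe above background, and a gene passed the test at a limma Benjamini-Hochberg adjusted p under 0.05 over all 15300 genes. TUSC4 read 9.75, 9.78 and 9.80 in the control samples and 8.50, 8.51 and 8.77 in the knockdown samples. It was below control in every knockdown sample, with a log2 fold change of -1.18 ± 0.10 (SE, n = 3 and 3, limma adjusted p = 9.16e-07). The arrays had 20378 to 21485 probes above the estimated background. Over kept probes, arrays of 1 group correlated at 0.991 to 0.996 and arrays of different groups at 0.979 to 0.984. Of 10 osteoblast and mesenchymal markers, COL1A1, VIM, SPARC and SPP1 were above background on all 6 arrays, while the osteoblast factor SP7 and the collagen gene COL1A2 were each above it on 1. Of the epithelial markers, EPCAM, KRT8 and KRT18 were above background on all 6 arrays and CDH1 and KRT19 on none. Of the immune markers, CD68 was above it on all 6 and the T cell marker CD3E on none.

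As background, replication is prepared in G1, when ORC, CDC6 and CDT1 load the MCM2 to MCM7 ring onto origins in an inactive form. Geminin (GMNN) later blocks reloading. In S phase the kinase of CDC7 and DBF4, with MCM10 and the GINS complex, turns the ring into a running helicase. Polymerase alpha with primase then lays down primers, polymerase epsilon and polymerase delta extend the leading and lagging strands on the PCNA clamp that the RFC complex loads, and FEN1 and LIG1 trim and seal the lagging-strand fragments. E2F factors, released from the RB protein, switch on many of these genes, and thymidine kinase, thymidylate synthase and ribonucleotide reductase supply the precursors.

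The replication genes did not move as a block. Of the 38 measured, 5 fell (TK1, MCM2, PRIM1, MCM3 and FEN1), 5 rose (E2F2, POLE, E2F1, LIG1 and PCNA) and 28 did not pass the test. The 10 called are 26.3% of the members, against 26.9% of all genes tested. Each direction took 13.2% of the members, against 13.3% of all genes for rises and 13.6% for falls, so the shares called were close to those of all genes tested. The members were brighter than most of these genes, with a median log2 intensity of 9.51 against 7.64. Among the 12737 genes detected on all 6 arrays, 15.5% passed as higher and 15.1% as lower, beside 5 and 5 members. The groups did not overlap for 16 members (42.1%), against 40.5% of all genes: 10 with the knockdown above control (26.3%, against 19.9%) and 6 with it below (15.8%, against 20.5%). The median log2 fold change of the members was 0.00 and that of all genes was 0.00, with a median size of 0.17 for both. In bulk RNA, fewer cells in S phase and less transcript per cell cannot be told apart.

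**Figure D1:**
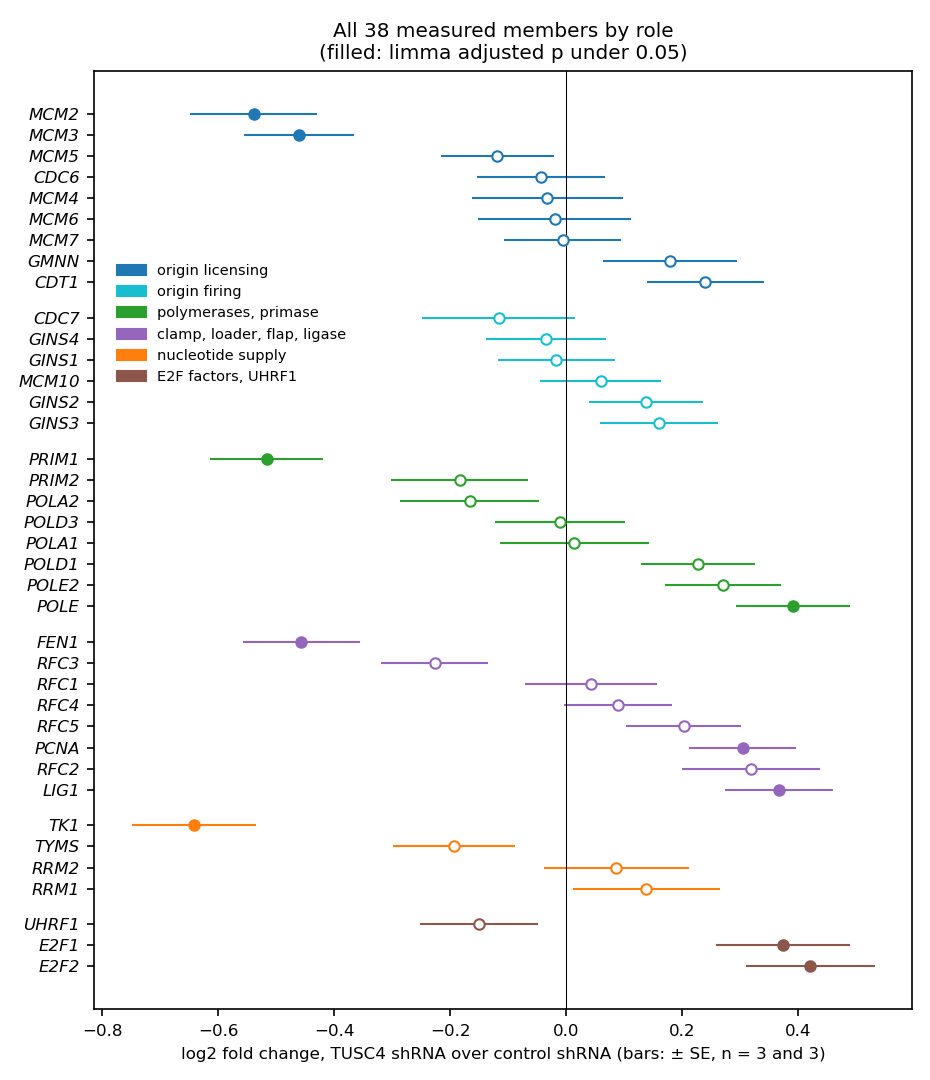
Log2 fold change (horizontal axis, TUSC4 shRNA over control shRNA) of the 38 measured members, ordered within each role, with bars of ± SE and n = 3 in each group. Filled points passed at a limma adjusted p under 0.05: 5 lie left of 0 and 5 right of it, from TK1 at -0.64 to E2F2 at 0.42, and 26 of the 38 lie within 0.25 of 0.

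The promoters of 7 of the 10 genes that passed are shown, since E2F control is known for much of the family and partners at the fork went opposite ways. They are FEN1 and LIG1, which finish lagging-strand fragments, PRIM1 and POLE, which prime and extend, MCM2 and MCM3 of the helicase, and E2F1 itself. Each line gives the 150 bases before the gene start in RefSeq (GRCh38.p14), 5′ to 3′ along the gene, and capitals mark E2F words on either strand, that is TTCCCGC or the same word with CG, GC or GG at the third and the fourth letter.
FEN1, chr11:61792761-61792910, plus strand: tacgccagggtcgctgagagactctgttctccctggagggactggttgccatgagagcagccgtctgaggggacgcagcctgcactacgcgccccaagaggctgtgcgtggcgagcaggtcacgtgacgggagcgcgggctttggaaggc
LIG1, chr19:48170345-48170494, minus strand: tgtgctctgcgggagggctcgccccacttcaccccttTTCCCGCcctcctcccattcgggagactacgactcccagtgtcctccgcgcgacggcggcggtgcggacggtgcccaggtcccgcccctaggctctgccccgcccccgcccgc
PRIM1, chr12:56752324-56752473, minus strand: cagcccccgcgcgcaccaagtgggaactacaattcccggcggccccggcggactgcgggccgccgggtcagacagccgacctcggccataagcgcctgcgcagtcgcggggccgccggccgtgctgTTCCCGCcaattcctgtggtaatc
POLE, chr12:132687343-132687492, minus strand: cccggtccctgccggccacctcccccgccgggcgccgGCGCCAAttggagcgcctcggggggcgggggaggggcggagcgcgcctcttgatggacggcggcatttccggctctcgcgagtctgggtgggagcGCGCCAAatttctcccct
MCM2, chr3:127598261-127598410, plus strand: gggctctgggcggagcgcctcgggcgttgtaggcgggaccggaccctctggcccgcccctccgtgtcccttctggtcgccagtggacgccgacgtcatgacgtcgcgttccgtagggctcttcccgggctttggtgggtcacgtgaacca
MCM3, chr6:52284743-52284892, minus strand: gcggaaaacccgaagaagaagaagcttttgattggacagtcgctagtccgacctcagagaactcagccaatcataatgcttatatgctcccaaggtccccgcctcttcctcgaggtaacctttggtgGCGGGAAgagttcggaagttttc
E2F1, chr20:33686386-33686535, minus strand: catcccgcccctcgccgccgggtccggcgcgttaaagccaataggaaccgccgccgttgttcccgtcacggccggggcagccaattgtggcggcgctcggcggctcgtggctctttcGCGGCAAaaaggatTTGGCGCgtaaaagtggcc

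Within the 250 bases before the start, 19 of the 35 members with a promoter entry (54.3%) held at least 1 of these E2F words, against 11.02% of all 27305 promoters. All 5 genes that rose held one and 2 of the 5 that fell did, MCM3 and PRIM1, as did 12 of the 24 that did not pass. The nearest E2F word began 23 bases before the start in MCM3 and 24 bases before it in PRIM1. E2F1 held a pair, beginning 33 and 19 bases before the start, and POLE another, at 113 and 18 bases. The CCAAT word, which NF-Y binds, was in 48.6% of member promoters and 33.04% of all, and the GC box word GGGCGG in 68.6% and 42.3%. By call, the CCAAT word was in 3 of the 5 rises and 2 of the 5 falls, and the GC box word in 4 and 2. The word TTTGAA, or its form with C at the third letter, which is known from promoters of mitotic genes, was in 5.71% of member promoters and 14.59% of all. All motifs were searched on both strands, and overlapping matches were counted. These are matches of letters in 1 window per gene, the first listed start where a gene had several. The 27305 promoters were those of RefSeq genes whether or not measured here, and they were not matched to the members in base content. Binding was not measured, and other forms of the E2F site were not searched. Whether rises and falls differ in any word was not tested.

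Of the 9 origin licensing genes, 2 fell and none rose. MCM2, a subunit of the helicase ring, read 8.68, 8.77 and 8.99 in the control samples and 8.34, 8.36 and 8.12 in the knockdown samples. All 3 knockdown values lay below all 3 control values. The log2 fold change came to -0.54 ± 0.11 (SE, limma adjusted p = 0.00179), which is 68.8% of the control value, the offset being part of both. MCM3, another subunit of the ring, read 12.39, 12.37 and 12.47 against 11.99, 11.99 and 11.86, again without overlap. Its log2 fold change came to -0.46 ± 0.10 (SE, limma adjusted p = 0.00202). The second MCM3 probe, tested among all 20657 kept probes, gave -0.58 ± 0.12 (limma adjusted p = 0.00167).

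The other 4 subunits of the ring did not pass. Their log2 fold changes were -0.03 ± 0.13 for MCM4, -0.12 ± 0.10 for MCM5, -0.02 ± 0.13 for MCM6 and -0.01 ± 0.10 for MCM7, and the groups overlapped for each of them. A second MCM4 probe lay below all control values in the 3 knockdown samples, at -0.26 ± 0.10 but did not pass (limma adjusted p = 0.0850 over all probes). Set against the control mean, the mean of MCM4 to MCM7 minus the mean of MCM2 and MCM3 was 0.09, -0.10 and 0.00 in the control samples and 0.52, 0.45 and 0.39 in the knockdown samples. This difference was chosen after the values were seen and carries no test. Because it is taken within each array, a shift of a whole array cancels from it, and over the 16 alternative settings it ranged from 0.41 to 0.50.

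Among the loaders, CDT1 read 10.07, 9.99 and 10.01 with the control shRNA and 10.34, 10.36 and 10.10 with the TUSC4 shRNA. Its groups did not overlap, yet its log2 fold change of 0.24 ± 0.10 did not pass (limma adjusted p = 0.0926). Without TUSC4 replicate 3 it passed, at 0.32 (limma adjusted p = 0.0241), and without normalization it was -0.02. GMNN, which encodes the inhibitor of CDT1, had 0.18 ± 0.11 and CDC6, the ATPase that helps load the ring, -0.04 ± 0.11. In GMNN the sample TUSC4 replicate 3 read 10.33 and the other knockdown samples 9.97 and 9.87, so the group spread was wide.

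None of the 6 measured genes of origin firing passed, and all lay within 0.25 of 0. GINS2 and GINS3, subunits of the complex that joins CDC45 and the ring, had 0.14 ± 0.10 and 0.16 ± 0.10. GINS1 and GINS4 had -0.02 ± 0.10 and -0.04 ± 0.10. MCM10, a scaffold of the starting fork, had 0.06 ± 0.10 by its brightest probe and 0.14 by the other. CDC7, the kinase that fires origins, had -0.12 ± 0.13. DBF4, its activating subunit, was the member not measured: its single probe was above background on no control array and on 1 knockdown array.

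**Figure D2:**
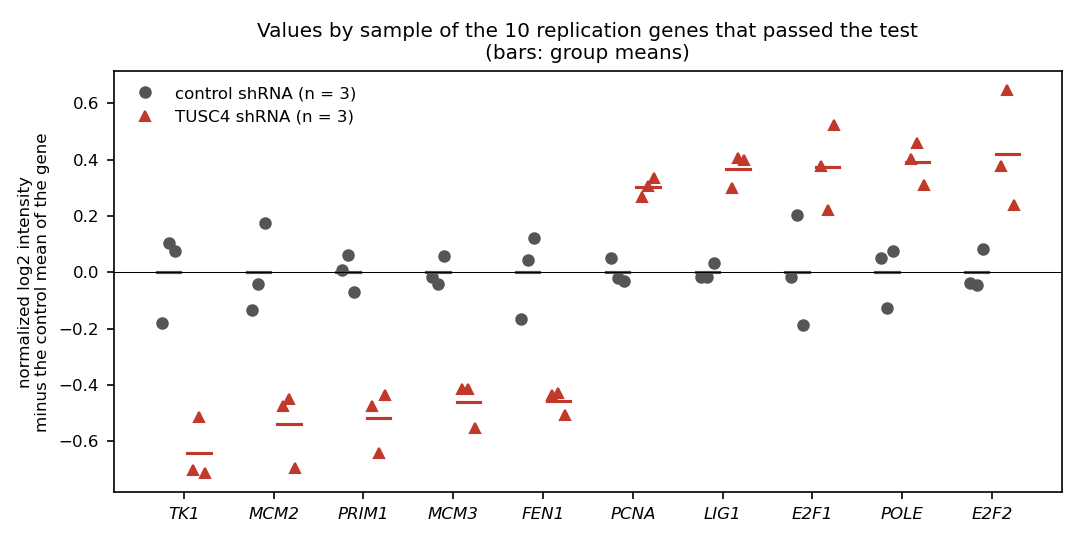
Normalized log2 intensity of each sample minus the control mean of the gene (vertical axis) for the 10 members that passed, with circles for the 3 control samples, triangles for the 3 knockdown samples and bars for group means. The groups are apart on this normalized scale in all 10 genes. The closest approach is in E2F1, where control replicate 2 read 7.76 and TUSC4 replicate 2 read 7.77.

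Polymerase and primase genes gave 1 fall and 1 rise among 8. PRIM1, the catalytic subunit of primase, read 11.09, 11.14 and 11.02 with the control shRNA and 10.61, 10.44 and 10.65 with the TUSC4 shRNA. No value overlapped, and the log2 fold change came to -0.52 ± 0.10 (SE, limma adjusted p = 0.00107). Its second probe gave -0.44 ± 0.10 (limma adjusted p = 0.00364 over all probes). The partners of PRIM1 in the same 4-subunit complex did not pass: PRIM2, the large primase subunit, had -0.18 ± 0.12, POLA1, the polymerase alpha catalytic subunit, 0.01 ± 0.13, and POLA2, its accessory subunit, -0.17 ± 0.12.

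POLE, the catalytic subunit of the leading-strand polymerase epsilon, read 7.60, 7.42 and 7.62 in control samples and 7.95, 8.01 and 7.86 in knockdown samples. The groups were apart, and the log2 fold change came to 0.39 ± 0.10 (SE, limma adjusted p = 0.0078). POLE2, its second subunit, was also above control in every knockdown sample at 0.27 ± 0.10 but did not pass (limma adjusted p = 0.0565). POLD1, the catalytic subunit of polymerase delta, had 0.23 ± 0.10 without overlap of the groups (limma adjusted p = 0.103), and POLD3, an accessory subunit, -0.01 ± 0.11. The call of POLE2 turned with the settings: it passed with the authors' values (0.26, limma adjusted p = 0.0334), without background correction (0.26, limma adjusted p = 0.0341), with the mean of probes (0.27, limma adjusted p = 0.0476) and without TUSC4 replicate 2 (0.33, limma adjusted p = 0.0436). The change of POLE minus that of PRIM1, also chosen after the values were seen, was 0.88, 1.10 and 0.75 in the knockdown samples and between -0.19 and 0.14 in the controls.

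Among the clamp, its loader and the enzymes that join fragments, FEN1 fell, LIG1 and PCNA rose, and 5 of 8 did not pass. FEN1, the flap endonuclease, read 11.77, 11.98 and 12.06 in control samples and 11.50, 11.51 and 11.43 in knockdown samples, without overlap. Its log2 fold change came to -0.46 ± 0.10 (SE, limma adjusted p = 0.00336), and its second probe gave -0.59 ± 0.12 (limma adjusted p = 0.00222 over all probes). LIG1, the ligase that seals the nick FEN1 leaves, read 8.43, 8.42 and 8.47 against 8.74, 8.85 and 8.84. All knockdown values were above all controls, with a log2 fold change of 0.37 ± 0.09 (SE, limma adjusted p = 0.00787). The change of LIG1 minus that of FEN1 was 0.73, 0.83 and 0.91 in the knockdown samples against 0.15, -0.06 and -0.09 in the controls. It ranged from 0.72 to 0.90 over the alternatives, a pair picked with the values in view and not tested.

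PCNA, the sliding clamp, read 11.88, 11.81 and 11.80 in control samples and 12.10, 12.14 and 12.17 in knockdown samples by its brightest probe. The groups were apart and the log2 fold change came to 0.30 ± 0.09 (SE, limma adjusted p = 0.0224). A dimmer PCNA probe gave 0.04 ± 0.12, the remaining one was not above background on any array, and the mean of the kept probes gave 0.17 (limma adjusted p = 0.209). The PCNA call was also lost with an offset of 16 (limma adjusted p = 0.0566) and without control replicate 2 (0.0569), control replicate 3 (0.0819) or TUSC4 replicate 2 (0.0551), with log2 fold changes of 0.29 to 0.31. The clamp loader genes did not pass: RFC1, the large subunit, had 0.04 ± 0.11, RFC2 0.32 ± 0.12, RFC3 -0.23 ± 0.09, RFC4 0.09 ± 0.09 and RFC5 0.20 ± 0.10. The 3 probes of RFC3 lay at -0.29, -0.26 and -0.23, and none passed with the settings used. RFC3 passed in 5 of the 16 alternatives: with the authors' values (-0.20, limma adjusted p = 0.0308), without background correction (-0.21, 0.0428), with the mean of probes (-0.26, 0.0419), with median scaling (-0.48, 0.00539) and without normalization (-0.52, 0.00701). RFC2 passed without control replicate 2 (0.44, limma adjusted p = 0.0135).

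**Figure D3:**
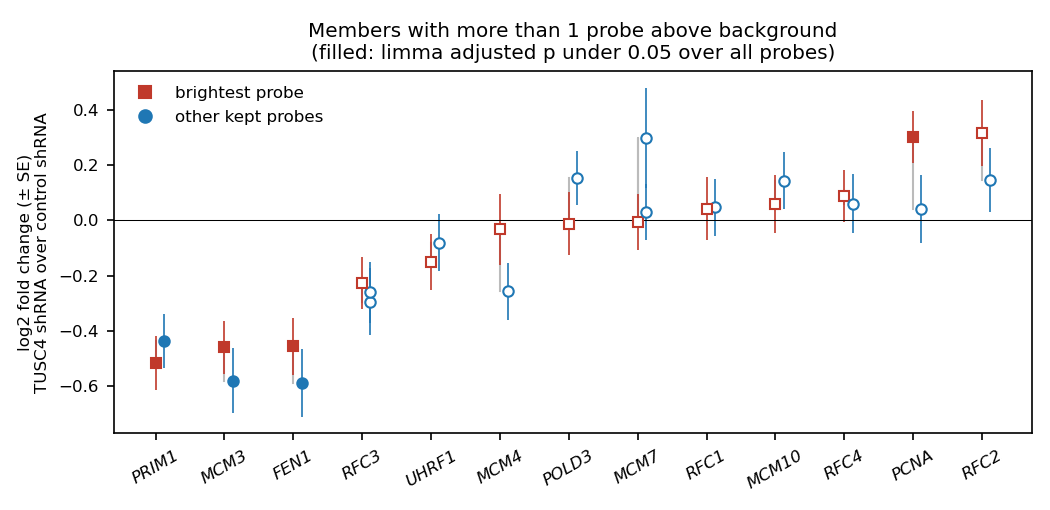
Log2 fold change (vertical axis, ± SE, n = 3 in each group) of every kept probe of the 13 members with more than 1, squares for the brightest probe and circles for the others, filled where the limma adjusted p over all probes was under 0.05. Both probes of PRIM1, MCM3 and FEN1 passed and lie between -0.59 and -0.44, while for PCNA 1 of 2 passed.

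At the level of probes, 13 of the 53 kept member probes passed, 5 higher and 8 lower, against 24.3% of all kept probes (11.8% higher and 12.5% lower). Of the 13 genes with more than 1 kept probe, 11 had all of them on the same side of 0. The exceptions were MCM7 and POLD3, whose brightest probes lay at -0.01. MCM7's second probe, at 0.30, spread from 8.23 to 9.19 across the knockdown samples.

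Nucleotide supply gave 1 fall among 4 genes, which was also the largest change of any measured member with the settings used. TK1, the cytosolic thymidine kinase that salvages thymidine in S phase, read 10.93, 11.22 and 11.19 with the control shRNA and 10.41, 10.60 and 10.40 with the TUSC4 shRNA. All knockdown values lay below all controls, at 64.1% of the control value, the offset being part of both. The log2 fold change came to -0.64 ± 0.11 (SE, limma adjusted p = 0.000386). TYMS, which makes thymidylate by the other route, had -0.19 ± 0.11, and the ribonucleotide reductase subunits RRM1 and RRM2 had 0.14 ± 0.13 and 0.09 ± 0.12. The groups overlapped for these 3 genes.

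Both E2F genes on the list rose. E2F2 read 9.96, 9.96 and 10.09 in control samples and 10.38, 10.65 and 10.24 in knockdown samples. Its groups were apart and its log2 fold change came to 0.42 ± 0.11 (SE, limma adjusted p = 0.0104), lost without TUSC4 replicate 2 (0.31, limma adjusted p = 0.0573). E2F1 read 7.54, 7.76 and 7.37 against 7.93, 7.77 and 8.08. The log2 fold change came to 0.37 ± 0.12 (SE, limma adjusted p = 0.0252), and the closest samples of the groups all but touched, at 7.76 and 7.77. The E2F1 call was lost without control replicate 1 (0.36, limma adjusted p = 0.0809), control replicate 3 (0.28, 0.138), TUSC4 replicate 1 (0.37, 0.0599) or TUSC4 replicate 3 (0.30, 0.0776). UHRF1, which helps copy DNA methylation to the new strand, had -0.15 ± 0.10 and did not pass.

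The falls and the rises differed in how they held across settings. TK1, MCM2, MCM3, PRIM1 and FEN1 passed in the same direction under all 16 alternative fits. The 5 rises were all lost when arrays were scaled by their medians or not normalized, although each kept a positive value there, from 0.09 for LIG1 without normalization to 0.19 for E2F2 with median scaling. In the deposited signal, before background correction and normalization, the groups overlapped for each of the 5 rises and stayed apart for the 5 falls. The mean deposited signal was 411 in TUSC4 replicate 1, 395 in TUSC4 replicate 2 and 476 in TUSC4 replicate 3. In the control samples it was 448 to 496, so only the first 2 knockdown arrays were darker than every control. With median scaling and without normalization the median over all genes was -0.12 and -0.16. Under either of them 10 members passed as lower and none as higher, the added ones being MCM5, POLA2, PRIM2, RFC3 and UHRF1. That is 26.3% of the members lower, beside 22.6% of all genes lower and 4.05% higher with median scaling and 23.0% and 2.52% without normalization. The members' median was then -0.16 and -0.20, which is -0.04 relative to all genes in both cases.

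**Figure D4:**
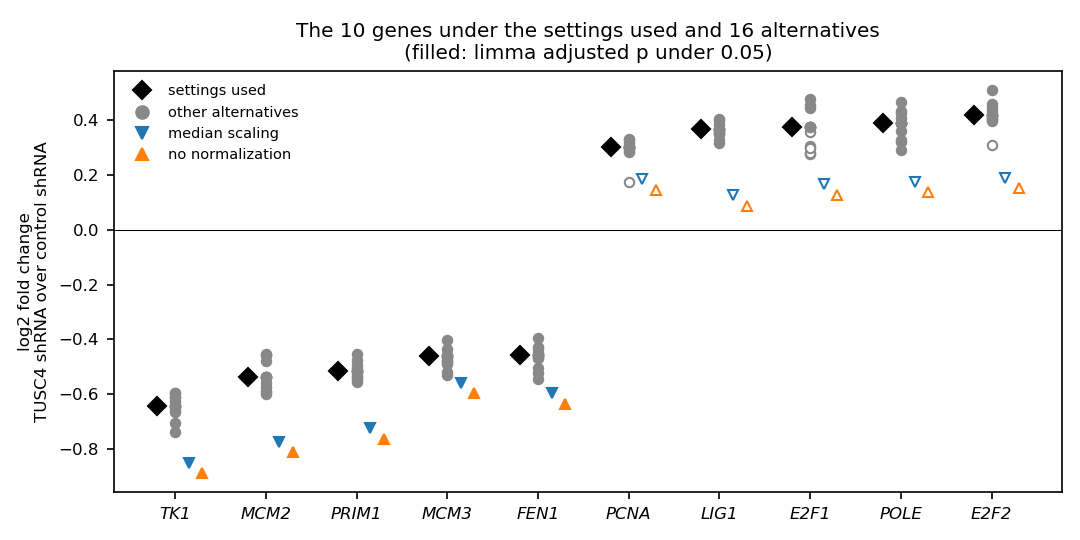
Log2 fold change (vertical axis) of the 10 members that passed, under the settings used (diamonds) and the 16 alternative fits, with triangles for median scaling and for no normalization and filled marks where the limma adjusted p was under 0.05. The 5 falls are filled throughout, and the 5 rises are open, but above 0, under those 2 scalings.

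The samples of the knockdown group were not alike across the members. Set against the control mean, the median of the 38 members was 0.11 in TUSC4 replicate 1, 0.05 in TUSC4 replicate 2 and -0.09 in TUSC4 replicate 3, and between -0.02 and 0.04 in the control samples. In TUSC4 replicate 3 the values of MCM4, MCM6 and MCM7 were below every control sample, at 10.70, 11.26 and 12.71, while those of TUSC4 replicate 1 were above every control sample, at 11.22, 11.71 and 12.96. Without TUSC4 replicate 3 the members' median was 0.08, and the 5 rises and 5 falls by count were as many as with it.

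Members were also set beside their chromosomal neighbours. Among the 50 measured genes nearest to PCNA the median was 0.29, with 27 higher and 1 lower past the threshold, and PCNA exceeded that median by 0.01. Around PRIM1 the median was -0.23 with 19 of 50 genes lower, around MCM3 -0.20 with 21 lower, and around MCM2 -0.15 with 18 lower. Relative to these neighbours PRIM1 stood at -0.29, MCM3 at -0.26 and MCM2 at -0.39. Around POLE the median was 0.17 with 15 genes higher, and POLE stood 0.22 above it. TK1, FEN1, LIG1, E2F1 and E2F2 had neighbours with medians between -0.04 and 0.06, so their values relative to neighbours were close to the plain ones, from -0.61 for TK1 to 0.37 for E2F2.

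All 10 members that passed shared the sign of their neighbours' median, as did 72.4% of the 3545 genes with a position that passed across the array. Over the 38 members the fold change and the neighbours' median correlated at a Pearson r of 0.65 and a Spearman rho of 0.67, against 0.33 and 0.34 over 12278 genes. The members were brighter than most genes, with a median log2 intensity of 9.51 against 7.64. The genes compared were not matched for intensity, so the 2 sets of correlations are not like for like. These describe genes that share the same 6 arrays, and some members share neighbours. Their part in the calls of PCNA, PRIM1, MCM3, MCM2 and POLE was not tested.

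**Figure D5:**
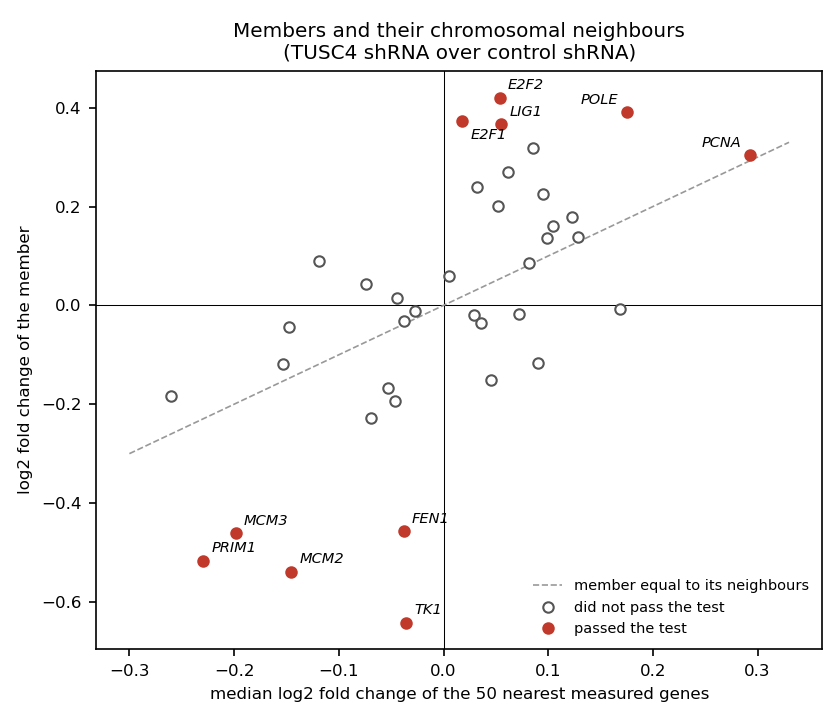
Log2 fold change of each of the 38 members (vertical axis) against the median log2 fold change of its 50 nearest measured genes (horizontal axis), filled for the 10 that passed. PCNA lies on the dashed line of equality, PRIM1, MCM3 and MCM2 lie below it with neighbours at -0.23 to -0.15, and TK1 and FEN1 lie far below it with neighbours at -0.04.

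Other genes of the pathway also went both ways, and their counts stand beside 13.3% of all genes higher and 13.6% lower. Of 14 measured origin genes outside the list, 3 rose (21.4%) and 2 fell (14.3%). The largest was MCMBP (C10orf119 on the array), a partner that unloads the MCM ring, at -0.57 ± 0.11 (limma adjusted p = 0.000982), beside DONSON, a fork factor, at -0.49 ± 0.11. The origin recognition gene ORC5 (ORC5L) rose by 0.53 ± 0.10, while MCM8, of a helicase used in repair, was at 0.29 and sat at the threshold (limma adjusted p = 0.0490). The 50 neighbours had medians of -0.22 for MCMBP, -0.12 for DONSON, 0.17 for ORC5 and 0.30 for MCM8. MCM8 stood at -0.005 relative to its neighbours. Of 23 fork genes, 3 rose (13%) and 2 fell (8.70%), the falls being POLE4, a small subunit of polymerase epsilon, at -0.71 ± 0.10, and POLD2, the second subunit of polymerase delta, at -0.59 ± 0.10. The rises included CHTF18, of an alternative clamp loader, by 0.45 ± 0.10 and RPA3, of the single-strand binding complex, by 0.34 ± 0.09. For these fork genes the 50 neighbours had medians of -0.34 for POLD2, -0.02 for POLE4, 0.10 for CHTF18 and 0.10 for RPA3. The part of the neighbours in these values was not tested.

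Of 14 further nucleotide genes, 3 rose (21.4%) and 2 fell (14.3%). DCK, the deoxycytidine kinase of the salvage route, had -0.65 ± 0.09 and CDA, cytidine deaminase, -0.41 ± 0.10. The deaminase gene DCTD rose by 0.49 ± 0.09 and CMPK1, a pyrimidine nucleotide kinase gene, by 0.47 ± 0.10. Neighbours had medians of -0.06 for DCK, 0.21 for CDA, 0.25 for DCTD and 0.20 for CMPK1, so CDA went against its own. Of 17 genes of replication-coupled chromatin assembly, 1 rose (5.88%; CDCA7, by 0.52 ± 0.09) and 3 fell (17.6%), the histone chaperone genes CHAF1B at -0.48 ± 0.11, SSRP1 at -0.38 ± 0.09 and ASF1B at -0.33 ± 0.09.

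Among 23 genes of the E2F and RB switch and the S-phase cyclins and kinases, 3 rose (13%) and 7 fell (30.4%). CDK2, the kinase that works with cyclins E and A to start S phase, had -1.02 ± 0.11 (SE, limma adjusted p = 6.98e-06), and its neighbours had a median of -0.29. SKP2, which targets the inhibitor p27 for destruction, had -0.82 ± 0.12. CDKN1A, which encodes the CDK inhibitor p21, rose by 0.62 ± 0.12, and RBL2, an RB relative, rose by 0.53 ± 0.11. CDKN1B, which encodes the inhibitor p27, had -0.52 ± 0.13 (limma adjusted p = 0.00881) and RB1 -0.37 ± 0.12 (limma adjusted p = 0.0330). The rest of the list that passed was TFDP1 at -0.50 ± 0.10, E2F6 at -0.38 ± 0.10, E2F7 at -0.34 ± 0.11 and E2F3 at 0.42 ± 0.13. CDKN1B, RB1 and this rest were named after their values were seen. The neighbours of TFDP1 had a median of -0.40, those of SKP2 -0.11, of RB1 -0.09 and of E2F7 -0.11. For RBL2 and E2F3 the neighbours' medians were 0.12 and 0.14. For CDKN1A and CDKN1B they were 0.0054 and -0.035, and for E2F6 0.07, against its own fall. Of 23 mitosis genes measured, none rose and 8 fell (34.8%), with a median of -0.21 against 0.00 for the replication genes. FOXM1 had -0.93 ± 0.09 and ANLN -1.10 ± 0.12, and their neighbours had medians of -0.17 and -0.34. AURKB had -0.64 ± 0.10 and PRC1 -0.74 ± 0.12, with neighbours at -0.01 and -0.00. Whether the lists differ was not tested, and TOP2A stands in both the fork and the mitosis list.

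The rises in these further lists depended on the scaling as those of the members did. With median scaling and without normalization, no origin, fork, nucleotide or chromatin gene passed as higher, and 1 gene of the E2F and RB list did. The 3 rises among origin genes became 1 when replicate 1 or replicate 2 of either group was left out, with an offset of 16, without the filter and with the replicate block. The 7 falls of the E2F and RB list became 3 without control replicate 1. The 2 falls among nucleotide genes became 1 without control replicate 3, 4 without TUSC4 replicate 2 and under either scaling, and 5 without background correction and with the authors' values. The 2 falls among fork genes became 4 with median scaling and 5 without normalization, and the 3 falls among chromatin genes 6 and 7.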

How the data were processed

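Biotin-labelled RNA of 6 U2OS samples was measured on Illumina arrays. The intensity was the average bead signal per probe that the authors deposited, with no normalization between arrays, made with BeadStudio, whose options are not given in the sources used here, per the submitters' processing notes. The deposited log2 values of the same arrays had a median of 6.89 in all 6 columns, as after quantile normalization. They served as an alternative, and their offset and centring are unknown.

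With limma 3.58.1 (R 4.3.3) the signal was background corrected (normexp, offset 50), quantile normalized and put on the log2 scale. Detection was estimated per array from the mode of the log2 signal (bandwidth 0.05) and the spread below it. Probes with p under 0.05 on at least 3 arrays were kept (20657), and each of 15300 genes took its brightest kept probe. The groups were compared with lmFit and eBayes without covariates, over genes and over probes, with Benjamini-Hochberg adjustment at 0.05. No set test was run. Neighbours and promoters came from RefSeq (GRCh38.p14). The fit was tested on simulated data.

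All 39 members could be named, with up to 4 called genes per related list. The exception is the E2F and RB list, of which every gene that passed is named. Members and lists were chosen with earlier results of these data known. The number of arrays limits the precision. The 16 alternatives covered background, offset, scaling, filter, probe choice, variance trend, the authors' values, leaving out each sample and a replicate block.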

Additional observations from a re-analysis of the deposited data

How the results depend on the processing

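With 6 arrays and a table holding no detection p-values, precision and the background level are limited, and the offset shrinks changes of dim probes such as those of CDC6 and GINS1. Median scaling gave 0 members higher and 10 lower (median -0.16) and no normalization also 0 and 10 (median -0.20), against 5 and 5 (median 0.00) with the settings used. For member probes both gave 0 higher and 16 lower, against 5 and 8. An offset of 16 left 3 member probes higher. Median scaling equalizes the array medians over all 47231 probes, not those of the 15300 genes tested, whose median was -0.12. Without normalization that median was -0.16. Each value under those 2 scalings includes this shift. Leaving out 1 sample gave 3 to 5 members higher and 5 lower, 3 to 6 member probes higher and 8 to 9 lower, and a median from -0.00 to 0.08. The 3 members higher came without control replicate 3, and 3 member probes higher came without control replicate 1, control replicate 3 or TUSC4 replicate 1. None of the 10 members called with the settings used changed sign in the 16 alternative fits. CDT1, called only without TUSC4 replicate 3 (0.32), was -0.02 without normalization. The mitosis genes lower numbered 15 under either scaling, against 8.

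No label says that a replicate number marks a shared batch, so the numbers were not taken as pairs. Same-numbered samples did not deviate together (correlations of 0.07, 0.08 and -0.09). With the replicate block 5 members were higher and 5 lower, the probe counts were 5 and 8, and the median stayed at 0.00.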
